A study of Mus musculus with 6 samples.

Results

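The 10 genes described here are outputs and brakes of the Ras-MAPK pathway: Etv4, Etv5, Dusp4, Dusp6, Spry1, Spry2, Spry4, Spred1, Spred2 and Hras. They were taken by symbol, by a rule that states no measured value, from earlier work on these data, and each was found in all 6 count matrices, as 10 of 22623 genes. RNA of single nuclei was counted in subcutaneous tumors of TC1 cells, a C57BL/6 mouse lung epithelial line immortalised with papillomavirus oncogenes and transformed with activated Ras. All host mice carried the same genotype, MCT2 loxP/loxP with the mCre-Tg transgene, in which tamoxifen activates Cre to delete Slc16a7, the gene of the pyruvate and lactate transporter MCT2, throughout the body. The KO group (3 libraries) received tamoxifen on 5 consecutive days from 8 weeks of age and the CO group (3 libraries) received vehicle. TC1 cells were injected 2 days later and tumors grew for 24 days. The deletion was induced in the host mice before injection, the promoter that drives Cre is not given in the sources used here, and TC1 is a single line. Tamoxifen and deletion cannot be told apart, because no group received tamoxifen without the loxP allele.

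Ras, held active by mutation or switched on by a receptor, drives the kinases Raf, MEK and ERK, and ERK raises transcription of a set of target genes. Etv4 and Etv5 are ETS transcription factors among those targets. Dusp4 and Dusp6 encode phosphatases that remove the activating phosphates from ERK, and the Sprouty and Spred proteins act further upstream to damp the same signal, so that transcripts of these brakes are widely read as a record of pathway output. Hras encodes a Ras protein itself, and counts of the endogenous mouse gene cannot be told apart from any transgene reads that aligned to it.

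Depth ranged from 13252572 to 22057084 UMIs (unique molecular identifiers, each tagging a captured transcript) per library, and 17514 nuclei were kept, 7660 CO and 9854 KO. A nucleus was called tumor-like with at least 3 UMIs of 8 tumor genes such as Mecom and Slit2 and at least 2 times as many as of the host lists, and host-like in the converse case. This gave 9701 tumor-like nuclei, 888 to 2654 per library, and 6180 host-like nuclei, of which 4489 were myeloid-like by macrophage genes such as Mrc1 and Csf1r. A further 1290 nuclei were mixed, 674 of them in KO replicate 3, and 343 were unassigned. None of the 10 genes was used for these classes. The label of the tissue is lung, but the keratin genes Krt8 and Krt18 reached only 14 and 2 UMIs in all tumor-like nuclei, and the myeloid marker Itgam was listed at 0 in every class. Levels are given as CPM, UMIs per 1000000 UMIs of the class in that library, and values are listed in the order CO replicates 1, 2 and 3, then KO replicates 1, 2 and 3. A level was compared between classes or libraries of the same gene, never between genes, whose length and intron content differ. Fewer transcripts per nucleus and fewer nuclei expressing a gene cannot be told apart in summed counts.

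The targeted gene did not separate the labels. Slc16a7 in host-like nuclei stood at 90.3, 87.8 and 138 CPM in the CO libraries and at 107, 120 and 146 CPM in the KO libraries, so that the groups overlapped. It was near 0 in tumor-like nuclei, at 0.83 to 4.14 CPM. The part of the gene flanked by loxP is not given in the sources used here. Whether 3′ counts remain after the deletion is therefore not known, and these counts do not check the labels. The extent of the deletion was not tested. CO and KO therefore denote libraries as labelled.

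Promoters from RefSeq (build GRCm38.p6, 250 bases before to 50 after each start) covered 7 of the 10 genes with 8 start sites. There was no entry for Etv4, Dusp4 and Spry4. The 3 shown belong to a pair of feedback genes that were higher in tumor-like nuclei, Spred2 and Spry2, and to Etv5, which was not. Capitals mark AGGAAG on either strand, the letters bound by PEA3-type ETS factors such as Etv4.
Spred2 promoter, chr11:19924192-19924491, plus strand: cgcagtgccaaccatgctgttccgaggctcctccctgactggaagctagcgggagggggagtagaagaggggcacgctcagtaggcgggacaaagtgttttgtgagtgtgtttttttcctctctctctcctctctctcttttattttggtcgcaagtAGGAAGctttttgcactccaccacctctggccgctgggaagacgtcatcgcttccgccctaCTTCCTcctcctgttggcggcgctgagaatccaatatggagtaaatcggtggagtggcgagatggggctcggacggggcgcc
Spry2 promoter, chr14:105896770-105897069, minus strand: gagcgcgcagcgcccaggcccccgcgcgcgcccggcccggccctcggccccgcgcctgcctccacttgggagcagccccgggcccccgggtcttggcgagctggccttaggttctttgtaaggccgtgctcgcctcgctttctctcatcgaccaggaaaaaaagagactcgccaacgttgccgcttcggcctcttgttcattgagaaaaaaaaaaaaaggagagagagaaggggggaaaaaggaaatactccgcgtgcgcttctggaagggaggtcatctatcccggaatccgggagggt
Etv5 promoter, chr16:22439521-22439820, minus strand: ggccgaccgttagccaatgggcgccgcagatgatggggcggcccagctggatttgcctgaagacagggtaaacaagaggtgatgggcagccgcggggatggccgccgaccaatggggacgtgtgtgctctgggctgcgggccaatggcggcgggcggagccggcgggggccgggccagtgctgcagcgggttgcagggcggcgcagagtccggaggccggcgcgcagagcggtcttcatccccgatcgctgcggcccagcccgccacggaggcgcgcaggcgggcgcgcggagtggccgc
AGGAAG occurred 2 times in the Spred2 window and was absent from the Spry2 and this Etv5 window. It was present in 1 copy in the windows of Dusp6, Hras and the second Etv5 start. Thus 4 of the 8 windows held it, against 35.4% of 32851 mouse promoter windows of the same length. These windows belong to 4 of the 7 genes. CCGGAAG (8.86% of all promoters), TGANTCA (7.81%) and TGACGTCA (1.79%), each searched on both strands, occurred in none of the 8 windows. CCGGAAG shares GGAAG with AGGAAG, and a given stretch can match only one of the pair. GC content of the 8 windows was 57 to 74%, above the median of 52.7% over all promoters. These are letters in a window, and binding was not measured.

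Etv4 set tumor-like nuclei apart more than any other of the 10 genes. Etv4 (chromosome 11, 101769742 to 101785371, minus strand, GRCm38) encodes an activator of the PEA3 subfamily. It stood at 222, 261 and 204 CPM in CO and at 261, 234 and 225 CPM in KO tumor-like nuclei. The same libraries gave 13.6, 12.7, 13.9, 20.5, 28.4 and 34.9 CPM in host-like nuclei. No host value came near a tumor value. This was a log2 fold change of 3.56 (SE 0.20), that is 11.8-fold, with an adjusted p of 7.49e-09 by edgeR's quasi-likelihood test with the library as a block. Against myeloid-like nuclei alone it was 3.72 (SE 0.21, adjusted p = 1.92e-10).

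The host level of Etv4, relative to the tumor level, was as low as that of some tumor marker genes and lower than that of others. Etv4 in myeloid-like nuclei was 3.36 to 14.5% of its tumor-like level in the same library. Of the 8 classifying genes, Mecom (2.00 to 9.06%), Slit2 (2.86 to 10.5%), Hmga2 (3.44 to 12.1%) and Igf2bp2 (5.45 to 12.98%) overlapped this range, whereas Tnc (17.2 to 33.7%), Pthlh (20.9 to 72.1%), Msln (28.6 to 121%) and Crabp1 (64.5 to 114%) lay above it. Of the tumor genes held out of the classification, Igf2bp1 (4.11 to 11.5%) and Adamtsl5 (5.36 to 21.0%) overlapped it, and Cdkn2a (52.6 to 66.7%) and Igf2bp3 (96.4 to 187%) lay above it. The summed held-out list was at 203 to 450 CPM in myeloid-like and 520 to 961 CPM in tumor-like nuclei. The part of free tumor RNA in these host counts was not tested. Mixed nuclei lay between the classes, with 106 CPM of Etv4 over all libraries (exact Poisson 95% interval 92.2 to 121, counting error only). After each nucleus was thinned to 1000 UMIs, a median of 20.1% of tumor-like nuclei (19.2 to 22.5% over libraries) held an Etv4 UMI against 1.18% of myeloid-like nuclei. Before thinning the shares were 64.7% and 1.74%, at median depths of 2724 to 7350 and 1117 to 1420 UMIs.

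**Figure D1:**
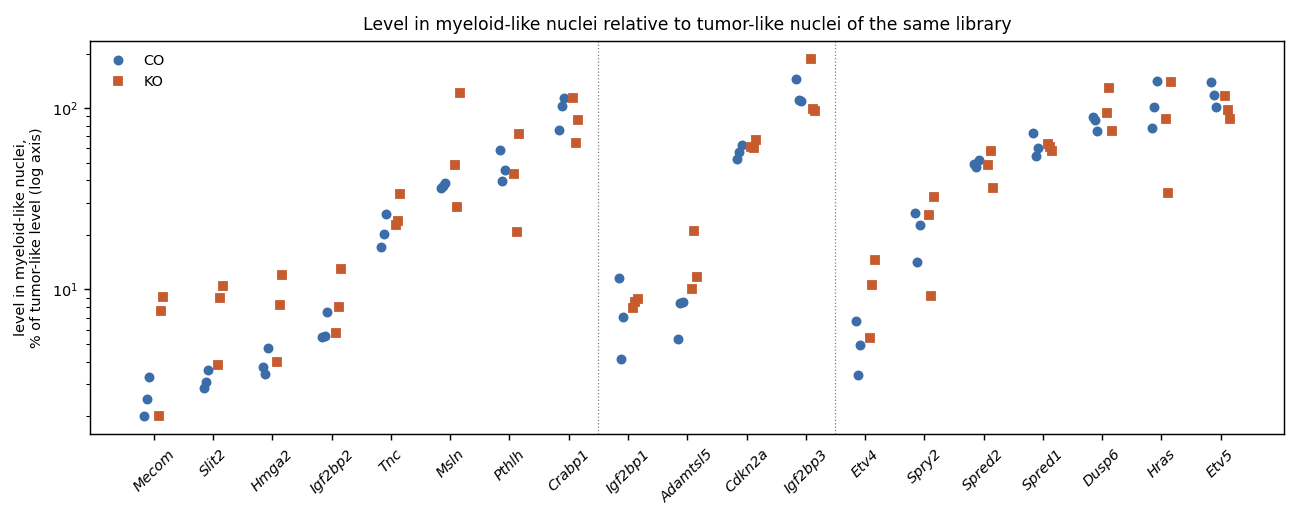
Level in myeloid-like nuclei as a percentage of the tumor-like level in the same library (log axis), for the 8 classifying tumor genes (left), 4 held-out tumor genes (middle) and 7 of the Ras-MAPK genes (right), set apart by dotted lines, with CO libraries as circles and KO libraries as squares. Etv4 lies at 3.36 to 14.5% and Etv5 at 87.0 to 140%, and the tumor genes span both, from Mecom at 2.00 to 9.06% to Igf2bp3 at 96.4 to 187%.

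Etv5, the close relative of Etv4 (chromosome 16, 22381309 to 22439719, minus strand), showed no such contrast. It stood at 85.0, 92.3, 141, 93.6, 136 and 148 CPM in tumor-like nuclei and at 107, 102, 119, 99.3, 114 and 119 CPM in host-like nuclei. The ranges overlapped. The log2 fold change was 0.05 (95% interval -0.15 to 0.24, edgeR adjusted p = 0.69). Against myeloid-like nuclei it was -0.22 (edgeR adjusted p = 0.060). Thinned shares were 10.97% of tumor-like and 10.9% of myeloid-like nuclei.

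Of the ERK phosphatases, neither passed both thresholds, a log2 fold change of at least 0.58 and an adjusted p of at most 0.05. Dusp6 (chromosome 10, 99263231 to 99267489), the cytoplasmic ERK phosphatase, was at 54.9, 66.4, 67.3, 78.1, 47.6 and 66.8 CPM in tumor-like nuclei. Host-like nuclei held 46.0, 53.5, 40.8, 71.9, 50.2 and 53.2 CPM. The difference was small, 0.29 on the log2 scale (edgeR adjusted p = 0.018, SE 0.10), and 0.10 against myeloid-like nuclei (95% interval -0.10 to 0.31). Dusp4 (chromosome 8, 34807297 to 34819894), a nuclear phosphatase, had few counts. It was at 1.37 to 3.22 CPM in tumor-like nuclei, from 147 UMIs, and held 14 UMIs in all host-like nuclei. Its log2 fold change of 0.27 had a 95% interval from -0.62 to 1.17, so no difference was detectable at this depth. Against myeloid-like nuclei, with 5 UMIs, it was 1.35 (edgeR adjusted p = 0.068). It was called in 2 of 10 alternatives, among them without KO replicate 1 (2.17, edgeR adjusted p = 0.037). Dusp4 entered this comparison only through tumor-like counts, so such a pass adds no support.

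Sprouty genes were higher in tumor-like nuclei. Spry2 (chromosome 14, 105891947 to 105896819) stood at 28.2, 33.7, 31.5, 38.1, 33.4 and 30.4 CPM there and at 12.8, 10.8, 9.94, 10.5, 6.55 and 17.2 CPM in host-like nuclei. The groups did not overlap, with a log2 fold change of 1.46 (edgeR adjusted p = 1.50e-05, SE 0.18). Against myeloid-like nuclei, which held 3.08 to 9.87 CPM, it was 2.01 (SE 0.20). Spry4 (chromosome 18, 38586247 to 38601415) was at 17.2, 21.3, 32.4, 14.996, 16.7 and 17.6 CPM in tumor-like nuclei. Every tumor-like value exceeded the host-like range of 3.49 to 12.9 CPM. Its log2 fold change was 1.33 (edgeR adjusted p = 0.00035, SE 0.24).

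Spry1 was called on few counts. Spry1 (chromosome 3, 37639947 to 37644598) held 250 UMIs in tumor-like and 13 in host-like nuclei, with levels of 2.94, 2.96, 10.97, 4.01, 1.71 and 2.42 CPM in the former. CO replicate 3 was far above the rest. The log2 fold change of 1.28 (edgeR adjusted p = 0.025, SE 0.46) fell to 0.82 without CO replicate 3 and to 0.10 when Mecom and Slit2 were left out of the tumor markers, with adjusted p-values of 0.13 and 0.82. It also missed the threshold when CO replicate 1 (adjusted p = 0.056) or KO replicate 1 (adjusted p = 0.057) was left out. Against myeloid-like nuclei it was 1.31 (edgeR adjusted p = 0.033, SE 0.51), and it missed the threshold without each of the same 3 libraries, at adjusted p-values of 0.062 to 0.18.

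The Spred genes were detected in both kinds of nuclei and were higher in tumor-like nuclei. Spred1 (chromosome 2, 117121374 to 117182279) encodes a membrane-associated inhibitor that brings neurofibromin to Ras. It stood at 534, 617, 683, 581, 775 and 693 CPM in tumor-like nuclei against 368, 318, 352, 344, 443 and 393 CPM in host-like nuclei. The lowest tumor value was above the highest host value. It was higher by 0.82 on the log2 scale (edgeR adjusted p = 4.70e-06, SE 0.09) and 0.62 against myeloid-like nuclei, close to the fold threshold, which it missed without CO replicate 2 at 0.576.

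Spred2 (chromosome 11, 19924375 to 20024026), its relative, stood at 266, 272, 258, 322, 371 and 387 CPM in tumor-like and at 129, 127, 130, 157, 205 and 157 CPM in host-like nuclei. Its log2 fold change was 1.07 (edgeR adjusted p = 1.22e-07, SE 0.08), or 2.10-fold. The lowest tumor-like value was above the highest host-like value. Both classes gave their higher values in KO libraries, but they come from the same libraries and are not independent. In tumor-like nuclei 5.13% of genes tested had all KO values above all CO values. The share in host-like nuclei was not counted.

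Hras itself (chromosome 7, 141189105 to 141194005, minus strand) did not distinguish the classes. It was at 51.9, 44.5, 26.5, 38.1, 9.01 and 16.3 CPM in tumor-like nuclei. Host-like nuclei followed the same order of size in part, at 44.3, 44.6, 36.8, 34.4, 6.55 and 21.6 CPM. KO replicate 2 was lowest in both. The log2 fold change was -0.04 (95% interval -0.31 to 0.23, edgeR adjusted p = 0.91).

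In all, 6 of the 10 genes were higher in tumor-like than in host-like nuclei and none was lower. The background was high, with 25.4% of 13186 genes tested called higher and 26.6% called lower, 52% in either direction. The share of all genes whose tumor-like and host-like values do not overlap was not counted. The median log2 fold change of the 10 was 0.95 against 0.00 over all genes tested. All 10 passed the filter on low counts, Dusp4 mostly and Spry1 only through tumor-like counts. Spry1 reached at most 2.22 CPM in a host-like sum, so its call adds no support to the count of 6. Against myeloid-like nuclei the same 6 genes were higher, beside 25.7% of 12868 genes. There both Spry1 and Dusp4 passed the filter only through tumor-like counts.

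**Figure D2:**
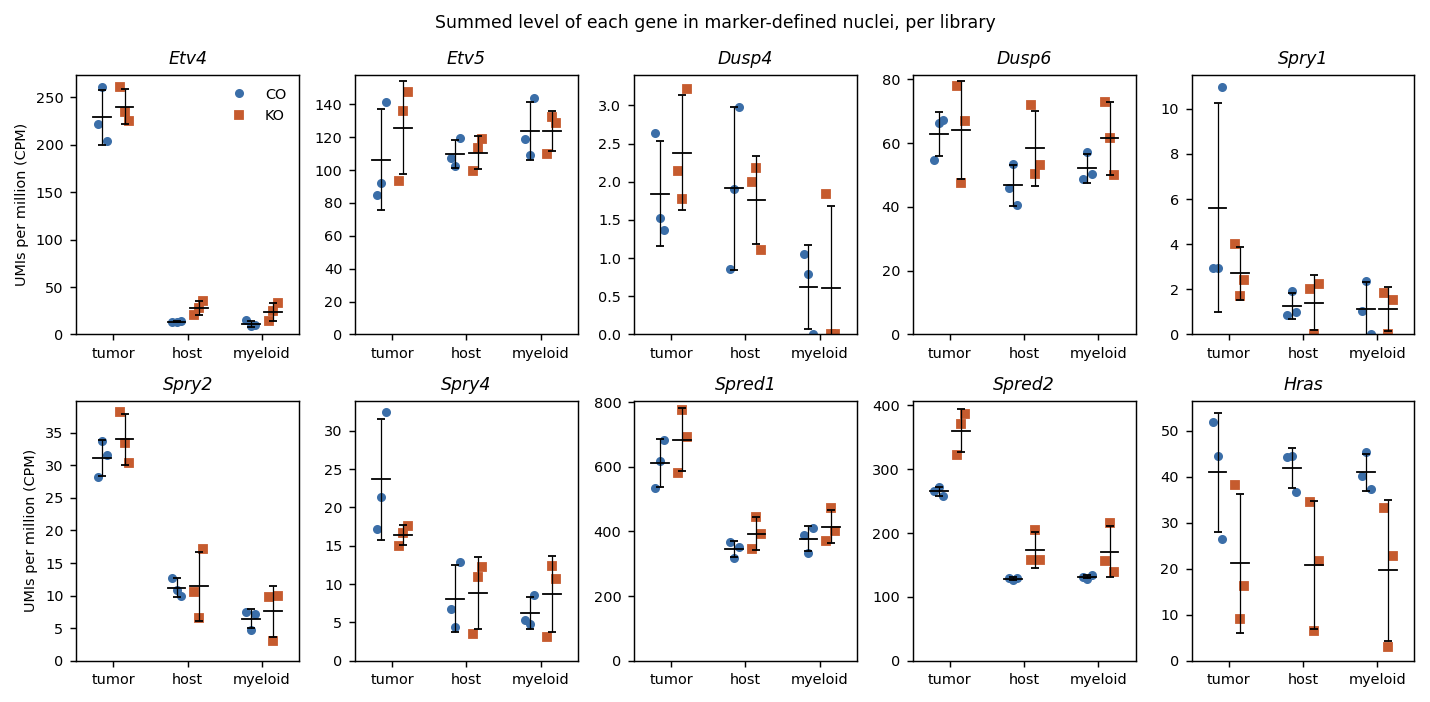
Summed level of each of the 10 genes (CPM, linear axes from 0) in tumor-like, all host-like and myeloid-like nuclei, with a point per library, CO as circles and KO as squares, horizontal bars at the mean and error bars of 1 SD (n = 3). Etv4 exceeds 200 CPM in each tumor-like sum and stays under 35 CPM in each host-like sum.

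**Figure D3:**
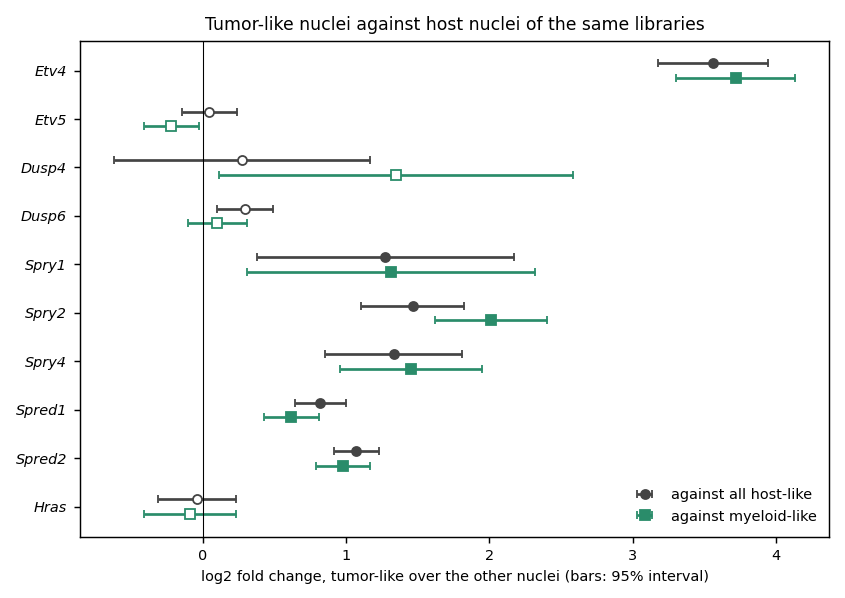
Log2 fold change of tumor-like over host-like nuclei (circles) and over myeloid-like nuclei (squares) with 95% intervals, filled where called. Etv4 stands at 3.56 and 3.72, and Etv5 and Hras lie near 0.

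Less abundant host classes gave other levels for a few of the genes. T/NK-like nuclei (433 in all, 30 to 113 per library) held 7 Dusp4 UMIs, or 13.7 CPM (exact Poisson 95% interval 5.52 to 28.3), where tumor-like nuclei held 2.12 CPM (1.79 to 2.49). Spry2 was at 41.2 CPM there (25.5 to 62.9) and at 32.9 CPM in tumor-like nuclei (31.6 to 34.3). Etv5 was at 51.0 CPM (33.3 to 74.7) against 120 CPM in myeloid-like nuclei (111 to 129). Spry4 stood at 44.3 CPM in 115 endothelial-like nuclei (19.1 to 87.3), from 8 UMIs. Spred1 was at 382 CPM there (297 to 484) and at 206 CPM in T/NK-like nuclei (168 to 249). The intervals cover counting error in pooled libraries only, and these differences were not tested.

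The rest of the pathway was described from 59 other genes in 4 lists, of which 58 passed the filter. In tumor-like against host-like nuclei 21 were higher and 10 lower, beside 25.4% higher and 26.6% lower of all 13186 genes tested. Among output and feedback genes 11 of 17 tested were higher and none lower, with a median log2 fold change of 1.17. Which of the 17 passed the filter only through tumor-like counts was not counted, and the lists were chosen with earlier results known. The 3 with the highest fold changes were Spred3 at 3.25 (SE 0.28), Etv1, the third PEA3-type factor, at 2.91 (SE 0.23), and Fosl1, an AP-1 subunit, at 2.40 (SE 0.14). Etv1 stood at 226, 238, 347, 249, 373 and 325 CPM in tumor-like nuclei. Ereg, an EGF receptor ligand, Phlda1, Dusp5, Lif, Hbegf, Egr1, Epha2 and Ier3 made up the rest of the 11.

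Of 13 Ras proteins, exchange factors and GTPase activators, 3 were higher and 3 lower, shares near those over all genes tested (25.4% higher, 26.6% lower). Rasal2, a GTPase activator, was higher by 2.27 (SE 0.22), whereas Rasgrp1 and Rasgrf2, exchange factors, were lower by log2 fold changes of -5.33 and -3.78. Of 13 kinases and scaffolds none was higher and 4 were lower, led by the scaffold Ksr2 at -4.22 (SE 0.57) and the ERK-activated kinase Rps6ka1 at -2.97 (SE 0.17). Of 15 receptors and adaptors 7 were higher and 3 lower. Against myeloid-like nuclei the named genes were Spred3 (3.21), Etv1 (2.86), Pdgfrb, a growth factor receptor (2.76), and Rras2, a Ras relative (2.64), on the higher side. Rasgrp1, Ksr2, Rasgrf2 and Rps6ka1 were again the lowest, at -5.42, -4.68, -3.52 and -3.23.

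Between KO and CO libraries none of the 10 genes was called in tumor-like nuclei, and neither was any of 13177 genes tested (0%). An unadjusted edgeR p under 0.05 was met by 841 genes, of which 1, Spred2, was among the 10. DESeq2 called 33 genes and none of the 10. Its CO values of 266, 272 and 258 CPM lay below the KO values of 322, 371 and 387 CPM, with means of 265 ± 7.08 and 360 ± 33.7 CPM (SD, n = 3). Such separation in either direction was met in 12.8% of genes tested, 5.13% with KO higher and 7.65% with KO lower. Spred2 differed by 0.51 on the log2 scale (edgeR adjusted p = 0.59, SE 0.18).

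Hras pointed the other way. Tumor-like nuclei gave 40.9 ± 13.04 CPM over the CO libraries and 21.2 ± 15.2 CPM over the KO libraries (SD, n = 3), which differed by -0.91 on the log2 scale (edgeR adjusted p = 0.59, SE 0.49). The groups overlapped, since KO replicate 1 with 38.1 CPM exceeded CO replicate 3 with 26.5 CPM. Ribosomal protein genes took 1.40, 1.15, 0.79, 1.32, 0.29 and 0.55% of tumor-like UMIs in the same order of libraries, and mitochondrial genes 9.93, 9.23, 6.15, 9.76, 5.66 and 5.74%. Hras and both shares were lowest in KO replicate 2 and next lowest in KO replicate 3. The part of RNA quality in the Hras difference was not tested.

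The other 8 genes were not called either. Etv4 differed by 0.14 (95% interval -0.20 to 0.48), Etv5 by 0.33 (-0.19 to 0.85), Dusp6 by 0.09 (-0.27 to 0.46) and Spry2 by 0.20 (-0.13 to 0.53), so a KO change of Etv4 beyond 0.48 on the log2 scale lay outside the interval. Spred1 gave 0.24 (-0.20 to 0.69), Spry4 -0.44 (-0.94 to 0.06), Dusp4 0.38 (-0.40 to 1.16) and Spry1 -0.94 (-2.10 to 0.22). None of 57 other pathway genes tested was called. Those with the smallest unadjusted p were Met (0.63) and Rras2 (0.51) above 0 and Pdgfrb (-0.73) and Shc1 (-0.34) below, all at an edgeR adjusted p of 0.59.

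KO replicate 1 decided these counts. Without it 2448 of 13276 genes were called in tumor-like nuclei, and 2 of the 10 genes passed, Spred2 at 0.60 (edgeR adjusted p = 0.035, SE 0.14) and Hras at -1.65 (edgeR adjusted p = 0.034, SE 0.36). Its ribosomal and mitochondrial shares, 1.32 and 9.76%, lay within the range of the CO libraries. Leaving out any other library left 0 genes called in this comparison.

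In myeloid-like nuclei 6 of the 10 genes passed the filter and none was called, as was none of 9724 genes (0%). An unadjusted edgeR p under 0.05 was met by 521 genes, of which 1, Etv4, was among the 10. DESeq2 called 7 genes and none of the 10. Etv4 had the highest fold change of the 6. It stood at 14.8, 8.75 and 10.1 CPM in CO and at 14.1, 24.7 and 32.7 CPM in KO. On the log2 scale it differed by 1.09 (edgeR adjusted p = 0.85, SE 0.44), and the groups overlapped. The summed tumor marker list in the same nuclei was 4.73, 4.71 and 5.55% of its tumor-like level in CO and 5.78, 8.79 and 11.7% in KO. Both the Etv4 level and this share were highest in KO replicates 2 and 3. Without KO replicate 1, 1747 genes were called, where 9724 had been tested with all 6 libraries. Among them were Etv4 at 1.49 (edgeR adjusted p = 0.013) and Hras at -1.16 (edgeR adjusted p = 0.037). With so many genes called, these passes do not set the 10 genes apart. The part of free tumor RNA in the Etv4 difference was not tested.

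Spred2 and Hras did not overlap between groups in myeloid-like nuclei, in the same directions as in tumor-like nuclei. Spred2 was at 131, 129 and 134 CPM in CO and at 157, 216 and 140 CPM in KO, 0.38 higher on the log2 scale (edgeR adjusted p = 0.85, SE 0.23). Hras was at 40.3, 45.3 and 37.3 CPM in CO and at 33.1, 3.08 and 22.8 CPM in KO, differing by -0.82 on that scale (edgeR adjusted p = 0.85, SE 0.42). Non-overlap was met in 11.4% of the genes tested, 5.77% with KO higher and 5.59% with KO lower. Etv5, Dusp6 and Spred1 differed by 0.01, 0.25 and 0.15 with intervals that included 0.

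Among other pathway genes in myeloid-like nuclei, Ksr2 was at 3.18, 1.59 and 4.31 CPM in CO and at 85.9, 12.3 and 23.5 CPM in KO. All KO values were above all CO values, and 140 of the 175 KO UMIs came from KO replicate 1. The log2 fold change of 3.95 had an SE of 0.75 and an edgeR adjusted p of 0.62. Ereg (0.70), Rps6ka1 (-0.65) and Map2k2 (-0.50) were the other genes named by p, none called.

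**Figure D4:**
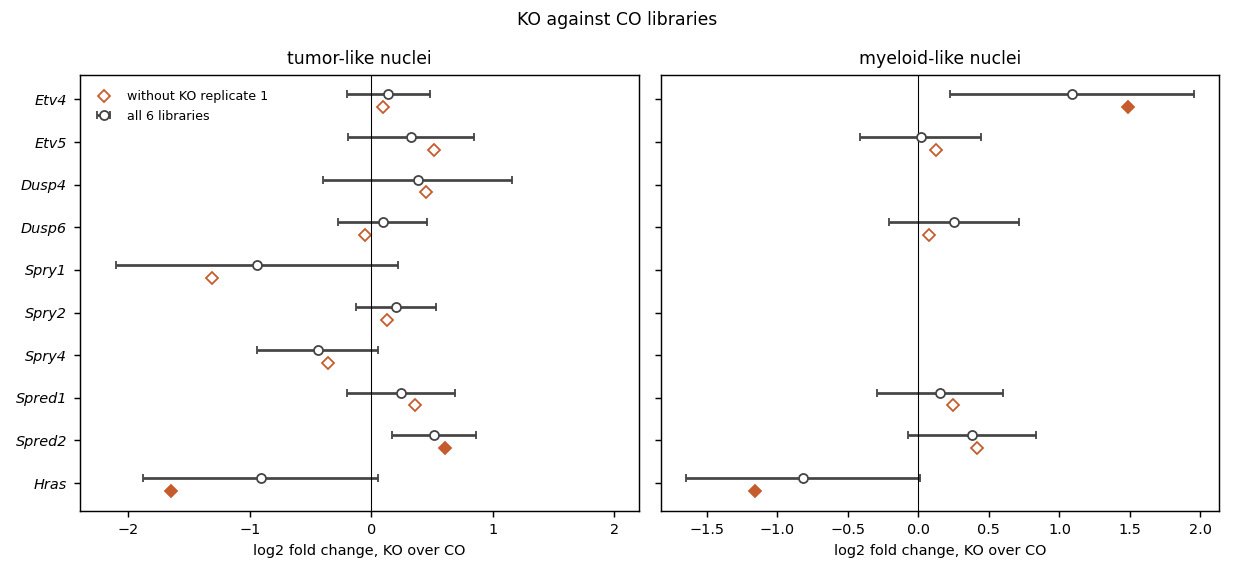
Log2 fold change of KO over CO libraries in tumor-like (left) and myeloid-like nuclei (right), with all 6 libraries (circles, bars are 95% intervals) and without KO replicate 1 (diamonds, filled where called). Spred2 and Hras in tumor-like nuclei and Etv4 and Hras in myeloid-like nuclei pass only without that library.

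Whether the KO change differed between tumor-like and myeloid-like nuclei was tested by an interaction term with the library as a block. None of the 10 genes differed. Etv4 was nearest, at -1.01 (edgeR adjusted p = 0.71, SE 0.43). Of 12868 genes 1 was called (0.00777%), Peli2 at -1.92 (edgeR adjusted p = 0.022, SE 0.27), which was named after its value was seen. Leaving out CO replicate 1, 2 or 3 or KO replicate 2 took the count to 0, leaving out KO replicate 3 to 8 and leaving out KO replicate 1 to 67, with none of the 10 genes in any. An unadjusted p under 0.05 was met by 857 genes, and DESeq2 called 1. Of the 17 other output and feedback genes 16 had a negative term and 6 an unadjusted p under 0.05, and none was called. Over all genes 5435 of 12868 terms were positive. The tumor marker list in myeloid-like nuclei, at 4.71 to 5.55% of its tumor-like level in CO and 5.78 to 11.7% in KO, was higher in each KO library, and its part in these terms was not tested. The pathway genes named by p were Ksr2 (-3.22, edgeR adjusted p = 0.47), Dusp5 (-1.32), Rps6ka1 (0.52) and Grb2 (0.29).

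Among tumor-like nuclei, 10 clusters were made without the 10 genes or the pathway lists. Cluster 1 (2731 nuclei) carried G2/M genes, cluster 2 (1881) was shallow with a median of 1699 UMIs, and cluster 3 (1782) was led by Dkk2 and Dock3. Cluster 4 (1597) was led by Frmd5, Gpm6b and Pde10a, cluster 6 (459) by Crabp1 and S100a4, and cluster 7 (361) by interferon-response genes. Cluster 5 (650) was led by the myeloid genes Fgr and Ly86 and had a mean doublet score of 0.13, and 3 clusters of 106 nuclei or fewer remained. The values below are descriptions, without a test.

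Etv4 was carried by each cluster. It ranged from 153 CPM in cluster 6 to 264 CPM in cluster 3 over clusters 1 to 7, above the highest host-like value of 34.9 CPM throughout. Cluster 6 was below the other tumor-like nuclei in each of the 3 libraries with at least 50 of its nuclei, at 0.55 to 0.78 times their level. Spred2 (176 CPM, 0.55 times the other nuclei) and Etv5 (78.6 CPM) were also at their lowest of clusters 1 to 7 there, while Hras reached 70.6 CPM and Dusp6 90.6 CPM. Hras there was 1.19 to 1.85 times the other tumor-like nuclei within those 3 libraries. In CO replicate 3 and KO replicates 2 and 3, with only 47, 29 and 29 nuclei of the cluster, it was 2.70, 3.97 and 3.64 times. The pooled nuclei gave 2.38 times. Introns make up 80.1% of Etv4, 93.0% of Etv5 and 95.4% of Spred2, against 23.8% of Hras and 26.5% of Dusp6. Spry4 (68.7%) and Dusp4 (78.3%) were above the other tumor-like nuclei in cluster 6, at 1.28 and 1.15 times. The part of intron content in the cluster 6 levels was not tested.

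Spry1 stood at 10.2 CPM in cluster 4 and at 1.996 to 2.499 CPM in clusters 1, 2, 3, 5 and 7. Cluster 6 held 7.22 CPM and was higher than the other tumor-like nuclei in 2 of 3 libraries, and the small clusters 9 and 10 held 7.88 and 7.04 CPM from 6 and 3 UMIs. In cluster 4 it was higher than in the other tumor-like nuclei in 6 of 6 libraries, by 2.21- to 5.46-fold. Spry4 was at 23.3 CPM in cluster 4 (higher in 5 of 6 libraries), 23.8 CPM in cluster 6 (2 of 3) and 22.7 CPM in cluster 7 (4 of 4, by 1.32- to 1.57-fold), whereas Spry2 was at 23.9 CPM in cluster 4 and lower in 4 of 6. Dusp6 was higher in the shallow cluster 2 in 6 of 6 libraries, by 1.04- to 1.71-fold.

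The 44 nuclei of cluster 10, led by the stress and immediate-early genes Atf3 and Ppp1r15a, had a different profile. Dusp4 stood at 42.2 CPM there from 18 UMIs, 22.6-fold above the other tumor-like nuclei. Of these UMIs 8 came from CO replicate 1, 5 from CO replicate 3, 4 from KO replicate 2 and 1 from KO replicate 1. CO replicate 2 and KO replicate 3 held none. Dusp6 was at 115 CPM and Spry2 at 68.0 CPM, 1.84- and 2.08-fold higher. Etv4 and Etv5 were lower, at 103 and 46.9 CPM, or 0.43 and 0.42 times the level elsewhere. No library held more than 18 of these nuclei, so a spread over libraries was not formed.

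**Figure D5:**
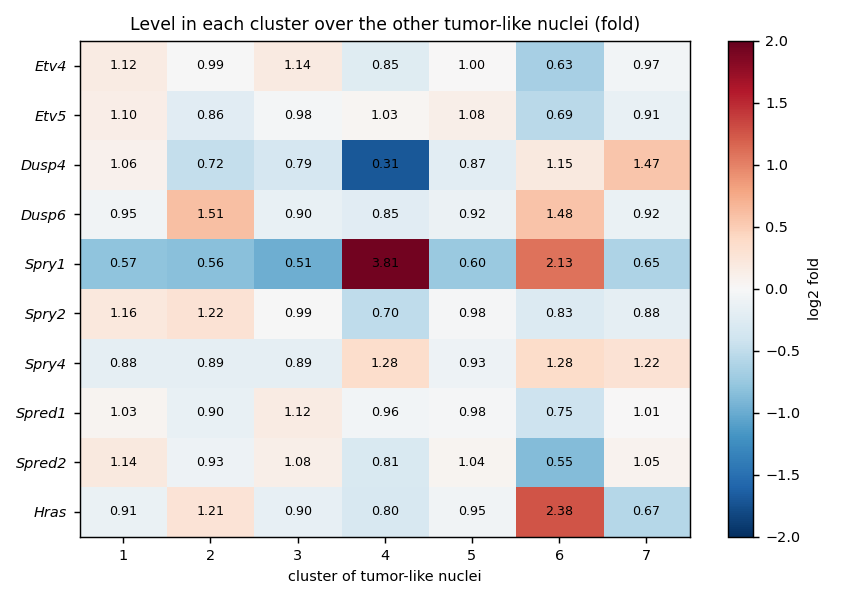
Level of each of the 10 genes in clusters 1 to 7 of tumor-like nuclei as a fold over all other tumor-like nuclei (numbers), with colour on a log2 scale. Spry1 reaches 3.81 in cluster 4, and in cluster 6 Hras reaches 2.38 while Spred2 drops to 0.55.

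Levels across 37 sums of a cluster and a library, centred within each library, gave the genes of closest pattern among 7703 compared. Etv4 was closest to Camk2d (Pearson r = 0.88), AC149090.1 and Urgcp, and Spred2 to Rcor1 (r = 0.90), Itsn2 and 4930402H24Rik. Spred1 was closest to Ipo9 (r = 0.86), Pwwp2a and Hs6st2, and Etv5 to Sesn1 (r = 0.80), Runx1 and Dennd2a. Dusp6 was closest to the immediate-early gene Ier2 (r = 0.82), Tmx1 and Ptgis, Spry2 to Eif4e (r = 0.70), Arhgap29 and Bag4, and Hras to Mrpl15 (r = 0.79), Sf3b4 and Lrrc42. Within the 10, Etv4 ran with Spred2 (r = 0.85) and Spred1 (r = 0.72) and the Spred genes with each other (r = 0.79), whereas Etv4 and Hras gave -0.44 and Etv4 and Dusp6 -0.25. Sums of a library share its depth and free RNA, so these coefficients are descriptions.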

How the data were processed

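Single-nucleus libraries (10x 3′ v3.1) from 6 tumors, 3 CO and 3 KO, were analysed, grouped by sample title. UMIs were counted by the authors in Cell Ranger on build GRCm38 (version 3.0.2 per the submitters' processing notes, 3.1.0 per the file headers). The deposited values are raw whole-number counts per gene and barcode, and show no trace of the correction for free RNA named in the methods. Use of intronic reads is not given in the sources used here.

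Nuclei with 100 to 7500 genes and under 20% mitochondrial counts were kept, and 500 top-scoring Scrublet barcodes were removed at 0.8% per 1000 barcodes, since the automatic threshold marked only 11. Of the kept nuclei, 157 had a barcode seen in more than 1 library, 13 barcodes being in all 6. Replicates differed beyond sampling noise (chi-square per degree of freedom 9.41 to 262). Counts were summed per library and class and tested with edgeR 4.0.16 (R 4.3.3, TMM, filterByExpr, quasi-likelihood F-test, Benjamini-Hochberg adjustment over all genes tested), tested first on simulated data. Clusters used scanpy 1.11.5 (30 components, 20 neighbours, Leiden resolution 0.6). Intervals are 1.96 SE, which is narrower than the F-test would give with so few libraries, or exact Poisson for pooled counts.

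The 10 genes, the marker and pathway lists and the tests were chosen with earlier results of these data known. Named pathway genes were the 4 with the largest fold change per direction among those called, or else the 2 with the smallest p. Whether replicates are separate animals is not stated in the labels, so p-values measure the spread between these samples. Alternatives were RLE normalization, DESeq2 1.42.0, no count filter, other class, doublet and nucleus filters, omission of each library and the replicate block.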

Additional observations from a re-analysis of the deposited data

How the results depend on the processing

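Etv4, Spry2, Spry4, Spred1 and Spred2 stayed higher in tumor-like than in host-like nuclei under all 16 alternatives, with Etv4 between 2.56 and 3.92 on the log2 scale, and Spry1 in 10 of 14. Against myeloid-like nuclei Spry1 was called in 9 of 14 alternatives and Spred1 in 14 of 16. Trimmed host lists, thinning to 1000 UMIs and removal of shared barcodes were added after the data were seen. KO against CO counts of called genes moved from 0 to 33 in tumor-like nuclei with DESeq2, and in myeloid-like nuclei to 7 with DESeq2 and to 7 with no filter on low counts. The interaction count of 1 moved to 0 with RLE normalization, without Mecom and Slit2 and without shared barcodes, to 2 with a marker ratio of 4 and with thinned nuclei, and to 71 with no filter. The cause was not tested. With the replicate block 0 genes were called in tumor-like and 0 in myeloid-like nuclei and 122 in the interaction (22 higher, 100 lower), none of the 10 genes among them. Same-numbered libraries correlated at 0.52, -0.20 and 0.39 in tumor-like nuclei. CO replicates 1 and 2 correlated with KO replicate 1 at 0.52 and 0.30, and CO replicate 3 with KO replicates 2 and 3 at 0.38 and 0.39. The other pairs were negative. Profiles were centred within each group of 3 libraries, so these values cannot decide whether the numbers pair the samples.

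Values that changed sign were near 0. Etv5 went to -0.057 in tumor-like against host-like nuclei with a marker ratio of 4, and to -0.046 without Mecom and Slit2 and -0.026 with thinned nuclei in KO against CO myeloid-like nuclei. Hras went to 0.081 with no filter and 0.026 without Mecom and Slit2 against host-like nuclei, and to 0.011 with no filter against myeloid-like nuclei. With each library left out in turn the values ranged from -0.068 to 0.11 (Etv5) and -0.16 to 0.052 (Hras) against host-like nuclei, -0.22 to 0.068 (Hras) against myeloid-like nuclei, -0.052 to 0.23 (Dusp6, KO against CO in tumor-like nuclei) and -0.078 to 0.14 (Etv5, KO against CO in myeloid-like nuclei). Called genes ranged from 0 to 2448 in tumor-like nuclei, 0 to 1747 in myeloid-like nuclei and 0 to 67 in the interaction, and members called from 0 to 2 in the first and 0 to 2 in the second.

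Shares of tumor-like nuclei with a UMI depend on depth. Without thinning the medians were 64.7% (Etv4), 41.4% (Etv5), 1.37% (Dusp4), 29.8% (Dusp6), 2.08% (Spry1), 17.4% (Spry2), 11.9% (Spry4), 84.5% (Spred1), 68.1% (Spred2) and 16.4% (Hras). Thinned to 500 UMIs they were 11.5% (Etv4), 5.73% (Etv5), 3.47% (Dusp6), 1.502% (Spry2), 24.7% (Spred1) and 12.7% (Spred2).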
